A study of Caenorhabditis elegans with 2 samples.

Results

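The 10 genes described here are all the C. elegans genes annotated as protein-coding under a puf or fbf name, out of 19973 protein-coding genes placed on the nuclear chromosomes. They were chosen by name and on the height of the PHA-4 peak at puf-9, which was already known to stand among the highest of the series. A summit, the highest point of a listed region, was given to a gene if it lay inside the gene or no more than 5 kb from its 5' end. The data are ChIP-seq of PHA-4, the FoxA factor of the pharynx and gut, from whole L3 larvae of mixed sex in 2 biological replicates with no second condition. Every animal was of strain OP37, which carries the unc-119(ed3) mutation and the insertion wgIs37, a pha-4 copy tagged with eGFP. The labels name PHA-4 as the antibody target and elsewhere the eGFP fusion, so the part of the protein that was recognised is not settled. The tagged copy is an addition to the genome, and the tissues in which each peak arose are not separated in a whole larva. No expression was measured, so the germ line or somatic use of each member is background knowledge and could not be checked here. The heights that led to puf-9 being picked are given as descriptions, and no test was run on them.

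Many proteins of the Pumilio family bind short elements, often with a UGUA core, in the untranslated tails of mRNAs. They repress these mRNAs, in many cases by recruiting the CCR4-NOT deadenylase. In the worm most members are known from the germ line. FBF-1 and FBF-2 hold germline stem cells in the undifferentiated state and act in the switch from sperm to oocytes, PUF-8 acts in germ cell proliferation and fate, and PUF-3, PUF-11, PUF-5, PUF-6 and PUF-7 are known from oocytes and early embryos. PUF-9 is the member known from larval soma: it acts in the hypodermis beside the let-7 microRNA pathway and represses hbl-1, a timing factor. PUF-12 is the distant member of the family and resembles the human nucleolar protein PUM3.

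The stretches below show the sequence under most of the member summits, because they are the places where PHA-4 signal meets this family. Some hold a match to the FoxA consensus, at different distances from the summit, and others hold none. Each stretch is read 5' to 3' on the strand of the named member from the WBcel235 genome of RefSeq, the assembly of build ce11. Capitals mark the FoxA strings, which are TGTTTAC and TGTTTGC and TATTTAC and TATTTGC, and the GA repeat GAGAGA, each searched on both strands. The FoxA strings are variants of a single consensus, and no matches overlap in these stretches.
The highest puf-9 peak is shown for 100 bases on each side of its summit (chrX:5841192-5841392, plus strand), and the others for 50 bases on each side. The lower puf-9 summits are at chrX:5839317-5839417 and chrX:5839897-5839997 (plus strand). The puf-12 summit is at chrII:10100056-10100156 and the puf-5 one at chrII:8577857-8577957 (plus strand both). The last is the highest fbf-2 promoter region of the pooled relaxed list, which is not an optimal peak, at chrII:6091588-6091688 (minus strand).
puf-9, 300 bp upstream: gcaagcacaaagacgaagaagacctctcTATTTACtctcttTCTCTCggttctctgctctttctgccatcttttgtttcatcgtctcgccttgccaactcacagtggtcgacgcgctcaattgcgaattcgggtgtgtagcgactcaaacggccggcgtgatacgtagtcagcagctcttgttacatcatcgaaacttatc
puf-9, 2225 bp upstream: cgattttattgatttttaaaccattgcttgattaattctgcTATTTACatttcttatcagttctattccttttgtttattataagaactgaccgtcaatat
puf-9, 1645 bp upstream: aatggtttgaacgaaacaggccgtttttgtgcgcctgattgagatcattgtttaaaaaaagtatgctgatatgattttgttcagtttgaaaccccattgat
puf-12, 204 bp upstream: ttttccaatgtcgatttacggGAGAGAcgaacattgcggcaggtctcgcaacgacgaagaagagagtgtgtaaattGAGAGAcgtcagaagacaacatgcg
puf-5, 2366 bp downstream: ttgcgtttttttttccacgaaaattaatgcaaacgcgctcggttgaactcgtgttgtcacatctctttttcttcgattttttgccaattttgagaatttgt
fbf-2, 158 bp upstream: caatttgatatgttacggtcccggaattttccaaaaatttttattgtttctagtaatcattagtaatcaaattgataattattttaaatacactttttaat

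A FoxA string lay 3 to 9 bases upstream of the puf-9 summit at -2225 bp, but at the higher summit at -300 bp the only one stood 66 to 72 bases upstream. In replicate 1 that higher summit lay 20 bp farther upstream, nearer to the string. None of the highest summits of the 4 members with an optimal peak had a FoxA string within 50 bp, beside 26.0% of all 7847 optimal summits. With 4 summits, that count cannot be set apart from the share. In windows of the same width centred 300 bp upstream of every protein-coding gene the share was 7.49%. With 100 bases on each side, puf-9 alone of these members had a FoxA string, against 35.6% of optimal summits and 15.0% of the gene windows. The puf-12 summit had 2 copies of GAGAGA within 50 bp, one on each side, while 23.3% of optimal summits and 6.11% of gene windows had at least 1. The puf-9 main summit had 1 copy on the other strand, 54 to 59 bases upstream. No match was found at the puf-5, puf-3 and fbf-2 summits or at -1645 bp of puf-9, which says only that these letters are not in those windows. Within 50 bases of the summit the GC content was 51.5% at the puf-9 main summit, 25.7% at its summit at -2225 bp and 35.6% at -1645 bp. It was 47.5% at puf-12, 35.6% at puf-5, 33.7% at puf-3 and 21.8% at fbf-2, and the median over optimal summits was 40.6% (quartiles 35.6 and 46.5%).

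Heights below are the authors' signal, on a scale that the sources used here do not give, and read depth is likewise unknown. The optimal list of 7847 peaks came from the pooled and both replicate lists, and those 3 relaxed lists hold 30000 regions each. Over the optimal peaks the median height was 28.7 in replicate 1 and 58.1 in replicate 2, so a height divided by its replicate's median, here called relative signal, was used across replicates. Between the replicates, the relative signal of an optimal peak varied by a median of 19.2% (SD over mean). In 38 optimal peaks replicate 1 had no overlapping region, and in 70 replicate 2 had none. Both replicate lists used the same control file, so their agreement is not fully independent, and n = 2 limits every SD.

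In the promoter window, 1000 bp upstream to 200 bp downstream of the annotated 5' end, 2 of the 10 members had an optimal summit, puf-9 and puf-12. Among all protein-coding genes 24.0% had one, a share near that of the family. By the wider rule, the gene and 5 kb around its 5' end, 4 of 10 members had a summit, puf-9, puf-12, puf-5 and puf-3, against 49.1% of all protein-coding genes. With 3 summits puf-9 was the only member above 1, while 10.7% of genes had 3 or more. In the pooled relaxed list 5 of 10 members had a summit by the same rule, fbf-2 being the addition, against 62.8% of genes. Within 2 kb in place of 5 kb, 2 of 10 members had an optimal summit, puf-9 and puf-12, against 33.7% of genes. With the 7847 highest regions of replicate 2 alone, 1 of 10 members had a promoter summit and 2 had one within 5 kb, against 24.0 and 49.5% of genes. With as many regions of replicate 1 alone the counts were 2 and 5, against 24.6 and 51.7% of genes.

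The puf-9 promoter held the highest PHA-4 peak of chromosome X. The peak (chrX:5841106-5841459, 354 bp wide) had its summit 300 bp upstream of the annotated 5' end of puf-9, outside protein-coding genes. Its height was 574 in the optimal list, 221 in replicate 1 and 353 in replicate 2, at rank 11, 11 and 15. Relative signal was 7.69 in replicate 1 and 6.07 in replicate 2, or 6.88 ± 1.14 (SD, n = 2). Both replicates thus put it within the highest 15 regions of 30000, and their summits lay 20 bp apart. In the optimal list 99.9% of peaks were lower, and puf-9 ranked 11 among the 4796 genes with a promoter summit, at 5.53 times the median of their highest promoter peaks, which was 104. On chromosome X, with 1676 optimal peaks and a median height of 76.7, the next peak reached 526.

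Both strands at that summit carry an annotated short non-coding RNA. W06B11.7 (chrX:5841170-5841350, minus strand) and W06B11.9 (chrX:5841185-5841361, plus strand) are listed as ncRNA and overlap each other, and the summit lies inside both. Neither has a role that is given here, and the peak cannot be assigned to puf-9 rather than to them by position alone. The nearest 5' end of a protein-coding gene other than puf-9 was that of dct-11, 1514 bp away on the opposite strand.

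**Figure D1:**
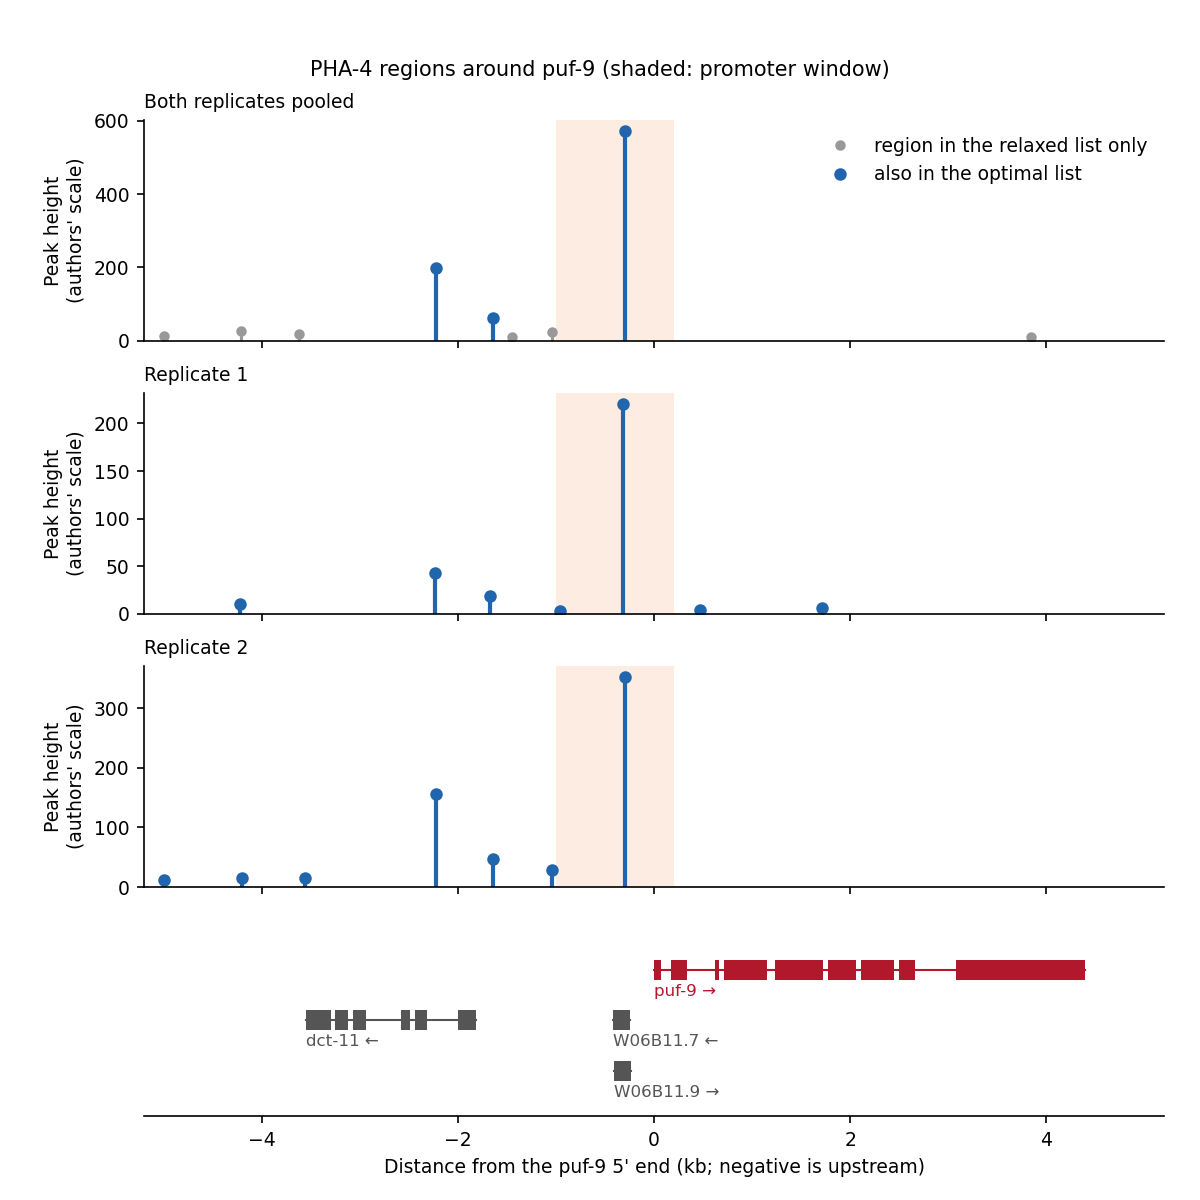
Peak height (authors' scale) against distance from the puf-9 5' end in kb, for the pooled list, replicate 1 and replicate 2, with exons as boxes below and the promoter window shaded. In every list the region near -300 bp is the highest, at 574, 221 and 353, and the regions near -2225 and -1645 bp come next.

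A pair of further optimal peaks stood farther upstream, in the 1813 bp gap to dct-11 and inside dct-11. The peak at -2225 bp (chrX:5839276-5839494, 219 bp wide) had a height of 199 in the optimal list, at rank 765, with 43.2 in replicate 1 and 156 in replicate 2. Its summit lay in an intron of dct-11, 411 bp downstream of the 5' end of that gene, and 1925 bp from the puf-9 main summit. Relative signal was 1.51 in replicate 1 and 2.69 in replicate 2, or 2.10 ± 0.84 (SD, n = 2), a spread of 40.0% of the mean. The peak at -1645 bp (chrX:5839777-5840116, 340 bp wide) was lower, at 62.9 in the optimal list, 19.0 in replicate 1 and 46.7 in replicate 2, and ranked 5454. Its relative signal was 0.73 ± 0.10 (SD, n = 2), below the median optimal peak. That summit was 169 bp upstream of dct-11, within the dct-11 promoter window, so 2 of the 3 puf-9 summits are nearer to dct-11 than to puf-9. On chromosome X the 3 peaks ranked 1, 143 and 1072.

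The replicates differed in how the signal was divided among those 3 peaks. The peak at -2225 bp reached 19.6% of the main peak's height in replicate 1 and 44.3% in replicate 2. The peak at -1645 bp reached 8.60% in replicate 1 and 13.2% in replicate 2. The main peak made up 78.0% of the summed height of the 3 in replicate 1 and 63.5% in replicate 2. The order of the 3 was the same in both replicates.

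Weaker regions of the pooled and replicate 2 lists lay mostly upstream of puf-9, while those of replicate 1 lay on both sides of its 5' end. The pooled list had 9 regions around the gene, the 3 optimal peaks included. Of the 9, 8 lay upstream and 1 at 3841 bp downstream, with a height of 9.76. Replicate 1 also listed regions within the gene, at 468 bp with a height of 3.99 and at 1709 bp with 5.89, and replicate 2 listed none downstream of the 5' end. Outside the optimal peaks the highest region of the pooled list was at -4214 bp, with a height of 26.7 and a −log10 q-value of 1.48, where optimal member peaks all had 4.15. At the edge of the promoter window, replicate 1 listed a region at -957 bp with a height of 2.99, and replicate 2 one at -1041 bp with 27.9. The first counts as inside the window and the second as outside, so the count of weak promoter regions at puf-9 depends on that edge. At the edge of the 5 kb rule, a pooled region at -4996 bp (height 11.997) was inside and one at 5102 bp (height 18.1) was outside.

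Of genes outside the family, those whose promoter relative signal came closest to that of puf-9 were rpl-15 and K11H12.8 at one shared peak, tasp-1 and K01G5.10 at another, and K12H4.5. Closeness was the sum over the 2 replicates of the absolute log2 difference, which was 0.10, 0.12 and 0.25 at the 3 peaks. Relative signal was 6.92 ± 0.81 at the peak of rpl-15, a large-subunit ribosomal protein gene, 6.64 ± 1.47 at that of tasp-1 and 6.31 ± 1.05 at that of K12H4.5 (SD, n = 2 each). These differ from puf-9 by less than the spread between replicates, and with 2 values per peak the likeness is one of height only.

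**Figure D2:**
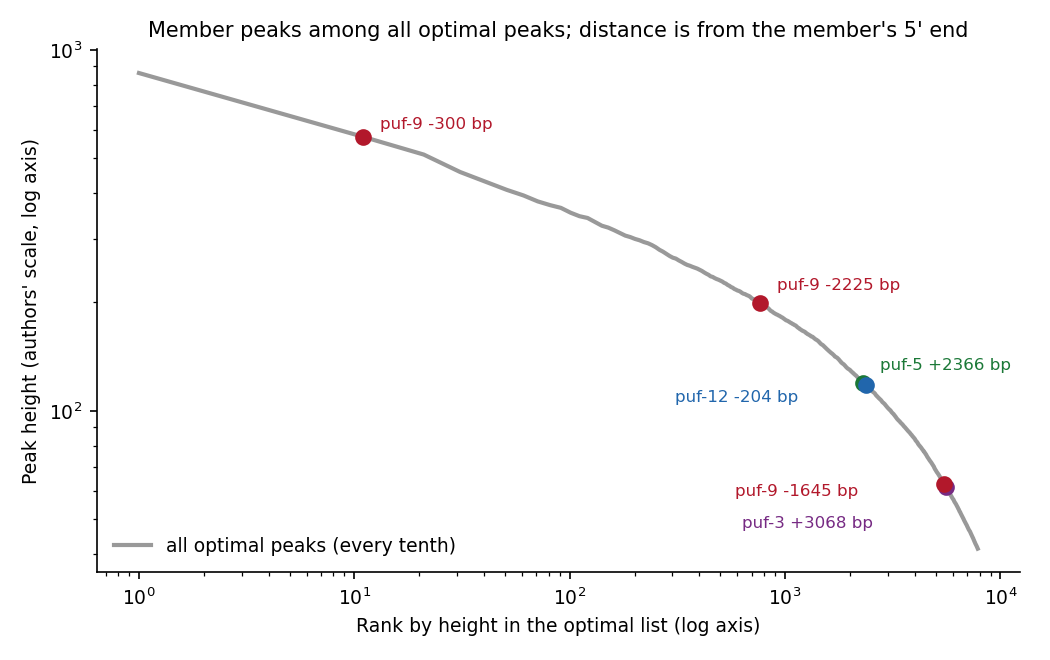
Height against rank for the optimal list, both on log axes, with the 6 peaks given to members marked by gene and by distance from its 5' end. The puf-9 main peak stands at rank 11, the other 5 between ranks 765 and 5566.

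The puf-12 promoter held a peak of ordinary height that was absent from the list of replicate 2. The peak (chrII:10099936-10100275, 340 bp wide) had its summit 204 bp upstream of puf-12 and 252 bp upstream of pas-7, a proteasome subunit gene on the opposite strand, so both promoter windows share it. It also lay within the annotated non-coding RNA ZK945.13. Its height was 118 in the optimal list, at rank 2387, and 41.4 in replicate 1, at rank 2364. Replicate 2 listed no region overlapping it, and the nearest summit of that list was 1662 bp upstream, with a height of 12.4. The optimal height was 1.14 times the median of genes' highest promoter peaks, and the puf-9 main peak was 4.87 times higher in that list and 5.33 times higher in replicate 1. Across the 7739 optimal peaks with a region in both replicates, the pooled height was close to the sum of the replicate heights, with a median ratio of 0.997 (quartiles 0.974 and 1.01). Among the 421 other optimal peaks within 5% of its pooled height, replicate 2 had a median of 78.8 (lowest 47.4, highest 182), and in 3 of them it also had no region. Why replicate 2 lists no region at puf-12 was not tested.

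The peaks given to puf-5 and puf-3 lay beyond the 3' end of each gene, at the start of a neighbour. The puf-3 gene itself lies within afmd-2, on the opposite strand. The puf-5 one (chrII:8577856-8577979, 124 bp wide) had its summit 2366 bp downstream of the puf-5 5' end and 142 bp upstream of F54C9.9, in whose promoter window it falls. Its height was 120 in the optimal list, 36.4 in replicate 1 and 80.8 in replicate 2, or a relative signal of 1.33 ± 0.09 (SD, n = 2). The puf-3 one (chrIV:13508924-13509263, 340 bp wide) had its summit 3068 bp downstream of the puf-3 5' end, 130 bp upstream of afmd-2, and in an exon of seld-1 outside its coding sequence. Its height was 61.6 in the optimal list, 33.2 in replicate 1 and 24.3 in replicate 2, at ranks 5566, 3337 and 9510. Relative signal at puf-3 was 0.79 ± 0.52 (SD, n = 2), a spread of 66.4% of its mean. Neither gene had any region in its own promoter window in any of the 4 lists. The closest for puf-3 were weak regions at -1178 bp (height 22.3) and -1673 bp (height 19.9) of the pooled list.

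**Figure D3:**
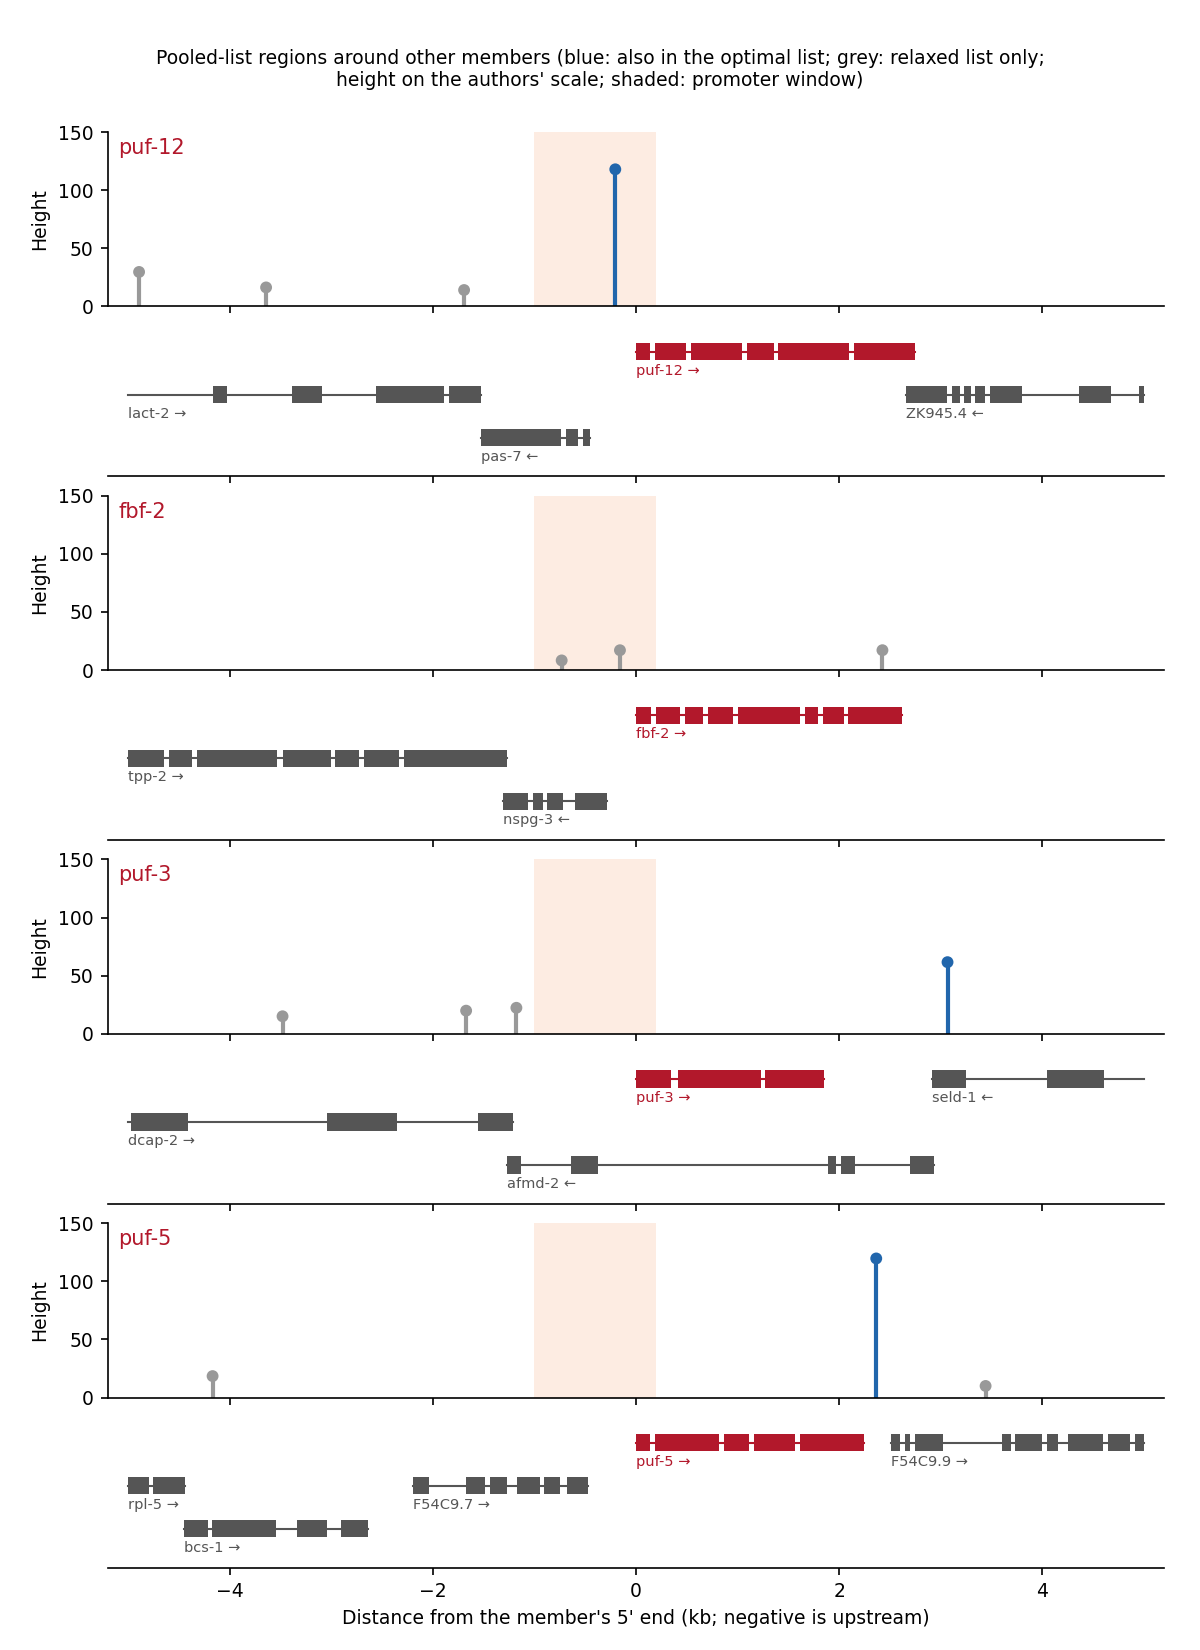
Pooled-list height (authors' scale, 0 to 150) against distance from the member's 5' end in kb for puf-12, fbf-2, puf-3 and puf-5, with member exons in red and neighbours in grey. The only optimal peak in a shaded promoter window is that of puf-12, while those of puf-5 and puf-3 stand next to F54C9.9 and afmd-2.

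Set against the highest optimal peak of any other member, the puf-9 main peak was 5.33 times higher in replicate 1, where that other was puf-12, and 4.37 times higher in replicate 2, where it was puf-5. The mean ratio was 4.85 ± 0.68 (SD, n = 2), and in the optimal list, against puf-5, it was 4.80. Even the second puf-9 peak, at -2225 bp, was 1.67 times as high as the highest peak of another member in the optimal list. In replicate 1 that last ratio was 1.04 and in replicate 2 it was 1.94. Left out of these ratios is a puf-8 region that replicate 1 alone listed, which is no optimal peak. Its height there, 51.4, was above the 43.2 of the puf-9 peak at -2225 bp and the 41.4 of puf-12. These ratios compare peaks by position, and 4 of the 6 are nearer to a gene outside the family.

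**Figure D4:**
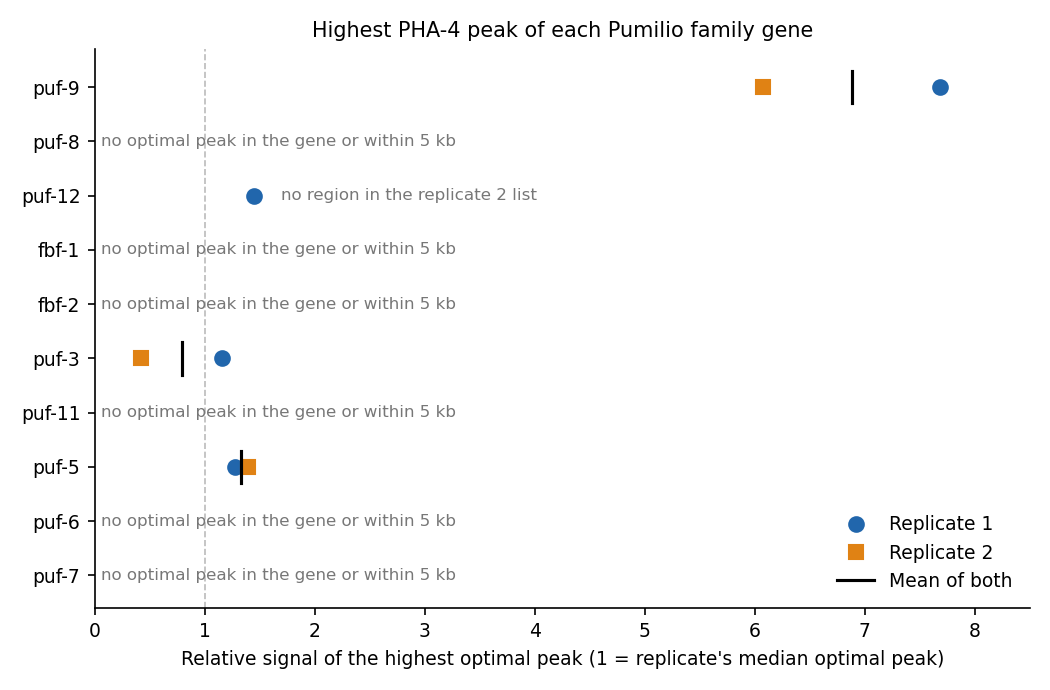
Relative signal of the highest optimal peak given to each member (1 is the median optimal peak of that replicate, dashed), with a circle for replicate 1, a square for replicate 2 and a bar for the mean. The 2 puf-9 values, 7.69 and 6.07, lie above all others, which range from 0.42 to 1.44.

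The other 6 members, puf-8, fbf-1, fbf-2, puf-11, puf-6 and puf-7, had no optimal peak by either rule. Their nearest optimal summits lay 10439, 19146, 26088, 10181, 6568 and 17415 bp from the 5' end, in the same order. The one nearest to the 5 kb limit from outside, among all members, was a peak of height 346 at 6019 bp upstream of puf-5. The next was that of puf-6, of height 70.0. Members with an optimal peak by the wider rule were 4 of 10, against 49.1% of all protein-coding genes.

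At fbf-2 both replicates listed weak promoter regions. The pooled list had one at -158 bp with a height of 17.0 and one at -732 bp with 8.25. Replicate 1 listed a region at -189 bp with a height of 4.37, and replicate 2 one at -150 bp with 11.4. The −log10 q-value of the pooled region at -158 bp was 0.59, and its rank was 15947 of 30000, below the level at which the optimal list ends. At puf-8, the member known from germ cell fate, replicate 1 alone listed a region at -3619 bp with a height of 51.4, at rank 1611. It stood 235 bp upstream of cul-4, a cullin gene, and neither the pooled list nor replicate 2 had a region there. Of the 1611 replicate 1 regions at least that high, 30 overlapped no region of the pooled list or of replicate 2. Around fbf-1, puf-11, puf-6 and puf-7 no list had any region by the 5 kb rule. The share of all genes without a region in any of the 4 lists was not computed. In the pooled list alone, 5 of 10 members had a summit by that rule, against 62.8% of all protein-coding genes.

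Absence from these lists has a limit in the sequence of the paralogs themselves. The coding sequences of puf-6 and puf-7 were identical at 98.5% of aligned positions, gaps counted. Those of fbf-1 and fbf-2 were identical at 91.7% and those of puf-3 and puf-11 at 90.2%. For puf-9 the highest values were 47.8% with puf-8 and with fbf-1 and 47.7% with puf-12, too close together to rank these members. Of the 32-base words in the promoter window, 100% occurred once in the genome for puf-9, and likewise for puf-8, puf-12 and puf-5. The share was 28.2% for puf-6, 28.4% for puf-7, 64.3% for fbf-1, 97.2% for fbf-2, 99.6% for puf-3 and 99.9% for puf-11. Over 5 kb on each side of the 5' end it was again 100% for puf-9, against 35.6% for puf-6, 44.0% for puf-7, 53.7% for fbf-1, 82.8% for fbf-2, 90.5% for puf-11 and 94.9% for puf-3. A read that lies wholly within repeated sequence has no single place, and the sources used here give neither the read length nor how the authors' alignments treated such reads. For puf-6, puf-7 and fbf-1 an empty list and unplaced reads cannot be told apart, whereas puf-8 and puf-11 had no optimal peak in sequence that is nearly all unique.

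**Figure D5:**
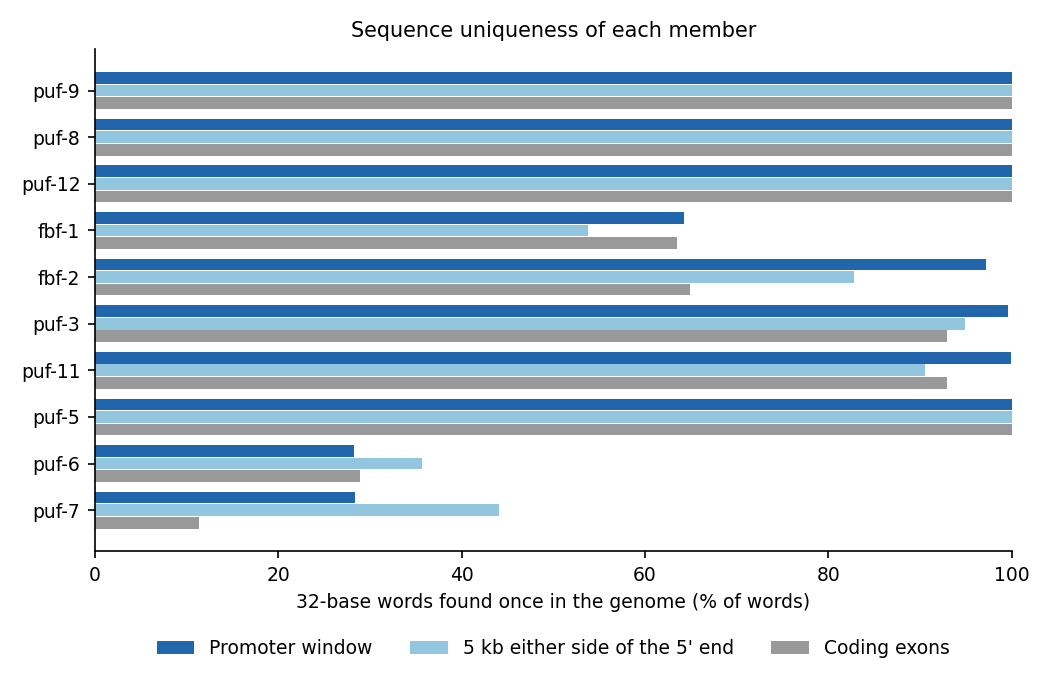
Share of 32-base words that occur once in the genome (% of words) for each member, in the promoter window, in the 5 kb on each side of the 5' end and in coding exons. The bars of puf-9, puf-8, puf-12 and puf-5 reach 100%, and those of puf-6, puf-7 and fbf-1 are shorter, at 28.2, 28.4 and 64.3% in the promoter window.

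The members also differ in their surroundings. The gene of puf-9 is the longest, 4396 bp with 9 exons, against 1856 to 3654 bp and 3 to 8 exons for the others, and every member has 1 annotated 5' end. The gap to the next protein-coding gene upstream was 1813 bp for puf-9, against 2656 bp for puf-6, 2076 bp for fbf-1, 1206 bp for puf-3 (leaving out afmd-2, which spans it), 1094 bp for puf-8, 686 bp for puf-11, 474 bp for puf-5, 455 bp for puf-12, 454 bp for puf-7 and 286 bp for fbf-2. The gaps of puf-6 and fbf-1 are longer than that of puf-9, and the rest are shorter. Whether gap length bears on the peaks was not tested, and the limit on repeated sequence just given holds for puf-6 and fbf-1. On chromosome X, where puf-9 lies, 25.01% of protein-coding genes had a promoter summit, against 21.8% on chromosome II and 22.5% on chromosome IV, where the other members lie.

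Genes listed around the Pumilio proteins, with markers of the germ line among them, had a promoter summit, here called bound, in unequal shares. Of 17 genes listed from general knowledge as partners and co-regulators of FBF, 3 had a promoter summit (17.6%). They were larp-1, a La-related RNA-binding protein, with a height of 447 at a peak shared with wip-1, nos-3, a Nanos protein, with 217 at a peak shared with Y53C12B.1, and gld-2, a cytoplasmic poly(A) polymerase, with 41.6. The median of these 3 heights, 217, is that of the nos-3 peak itself, and over all genes with a promoter summit the median was 104. The 3 run from 41.6, near the 41.4 of the lowest optimal peak, to 447, and are too few for a comparison of levels. The unbound ones include gld-1, gld-3 and fog-1, with no summit by the 5 kb rule either, and lst-1, with 6 by that rule. Of 8 matched CCR4-NOT genes, 6 were bound (75%), with a median of 99.0. The highest were ntl-11 (height 296), ntl-2 (289), ccf-1, the CAF1 deadenylase (131), and ntl-4 (66.6). The ccf-1 peak is shared with trap-4 and the ntl-4 peak with npp-27. The 6 heights run from 46.8, near the 41.4 of the lowest optimal peak, to 296. Of 12 genes of the let-7 pathway and of PUF-9 action, 8 were bound (66.7%), with a median of 119, among them nhl-2, a TRIM-NHL cofactor of microRNAs (378), ain-1, a GW182 protein (217), lin-28, an RNA-binding timing factor (128), and alg-1, an Argonaute (120). The nhl-2 peak is shared with tag-340. That list holds the let-7 microRNA gene, which is bound, and without it 7 of 11 protein-coding genes were bound (63.6%). The hbl-1 gene, which PUF-9 represses, had no summit in its gene or within 5 kb. Of 17 markers of germ line RNA-binding proteins, 2 were bound (11.8%), cgh-1 (119) and car-1 (53.5, at a peak shared with coa-5), with a median of 86.0. The lists are short, were written with results of this series known, and cgh-1 stands in 2 of them, so their shares are descriptions beside the 24.0% of all protein-coding genes.

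The annotation also holds 2 family pseudogenes, which are no members. Around puf-4 on chromosome IV, 1 optimal peak with a height of 156 met the 5 kb rule. The highest regions by that rule reached 52.9 in replicate 1 and 105 in replicate 2. The distance of the optimal peak from puf-4 and the gene nearest to it were not worked out, so it may lie nearer to a neighbour. Around puf-10 no list had a region.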

How the data were processed

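PHA-4 ChIP-seq regions from 2 replicates of whole L3 larvae were analysed as peak lists on build ce11. Per the manifests, the relaxed lists were made from 1 replicate's alignment, or both, with a shared control, and the optimal list was drawn from them by irreproducible discovery rate. The deposited signal (the authors' peak height) has no stated scale, and the deposited q-value is −log10. The sources used here name no caller, aligner or depth. The ce10 lists were not used.

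Summits (start plus column 10) were placed on Ensembl release 115 genes. Relative signal is the overlapping replicate region's height over that replicate's median on optimal peaks. Sequences are from RefSeq WBcel235. Coding sequences were aligned globally with Biopython 1.88 (Python 3.11.15, NumPy 2.4.6, pandas 2.3.3, Matplotlib 3.10.9). Placement code was tested on simulated data.

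Members, lists and rules were chosen with earlier results of these data known, so no test was run. Named genes are all members, their neighbours at a summit, the 5 genes nearest to puf-9 in relative signal and up to 4 bound genes of each partner list. Outside that rule cul-4, hbl-1, the unbound FBF partners and genes sharing a partner's peak are named, chosen after their values were seen. Alternatives were other windows, higher peaks, single lists, scalings and motif windows. tob-1 matched no annotated gene.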

Additional observations from a re-analysis of the deposited data

How the results depend on the processing

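Of 36 recomputed values, 29 stayed within the replicate spread or within 1.5 times the count, and 7 moved. Some of the 29 could not have moved. With n = 2, a single replicate's relative signal or ratio always lies within the SD of the mean. Another scaling median cancels out of a ratio within a replicate. Every member has 1 annotated 5' end, so taking the end of the gene record changed nothing. The count of members with a promoter summit was 1 to 2 when a replicate was left out, since puf-12 has no region in replicate 2, while the share of all protein-coding genes was 24.0 to 24.6%. The count within 5 kb was 2 to 5 when a replicate was left out, with puf-3 and puf-12 lost without replicate 1 and puf-8 gained without replicate 2, beside 49.5 to 51.7% of genes, and it was 2 within 2 kb, beside 33.7% of genes. The puf-9 summits numbered 9 in the pooled relaxed list. The puf-9 relative signal was 28.9 when each replicate was divided by the median of its whole relaxed list, and 6.07 to 7.69 by single replicates. Its rank ran from 11 to 15, and its ratio to the highest optimal peak of another member from 4.37 to 5.33. That ratio leaves out the puf-8 region of replicate 1, which is no optimal peak but at 51.4 was higher than puf-12 there (41.4). With a motif window of 100 bp, 1 member had a FoxA string at its highest summit, against 0 within 50 bp. Depth is unknown and n = 2, so an unlisted region is not shown to be unbound.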
